A study of Homo sapiens with 32 samples.

Results

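Peaks of N6-methyladenosine (m6A) were examined in 9 genes whose products mark epithelial or mesenchymal cells. The 4 epithelial genes were CDH1, KRT8, KRT18 and KRT19, and the 5 mesenchymal genes were CDH2, VIM, ZEB1, SNAI2 and FN1. The genes were chosen by name, and every deposited peak that overlapped the hg19 span of one of them was taken. This gave 199 of the 424904 peaks in the lists. Peaks of different libraries that overlapped by at least 1 bp were joined into sites, of which 59 of 174376 lay in the 9 genes. Sites are numbered from the 5′ end of each gene. Of the 9 genes, 7 held a listed peak, and those 7 held at least 1 in every library. KRT18 and KRT19 held none.

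The cells were PANC-1, an established human line of pancreatic ductal adenocarcinoma. Total RNA was fragmented, and the fragments pulled down with an antibody against m6A were sequenced beside an unselected input. The groups were cells with a knockout of CFL1 (cofilin 1, which severs actin filaments), cells with a knockout of METTL3 (the enzyme that writes m6A, acting in a complex) and control cells. All 3 groups shared the cell line, and the labels list no other treatment for them. Each group had 2 antibody samples with 2 inputs, and its peak list joined separate calls on 2 libraries. They are named here CFL1 knockout 3 and 5, METTL3 knockout 3 and 5, and control 1 and 2, after the numbers in the peak names. The numbers 3 and 5 do not occur as replicate numbers in the labels. The knockout peak names carry the letters si, whereas the labels say knockout, and the labels were followed. Nothing in the labels says whether a knockout was 1 clone or a pool, or that a group's libraries stem from different cultures. The spread between 2 libraries may therefore be technical. The series title concerns m6A that depends on CFL1, on super enhancer RNA.

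Epithelial cells are held together by E-cadherin and built on keratin filaments. In epithelial-mesenchymal transition, repressors of the ZEB and Snail families silence CDH1, N-cadherin takes the place of E-cadherin, and vimentin and fibronectin increase. In pancreatic cancer this program is linked to invasion and drug resistance. In messenger RNA, m6A is laid down by METTL3 with its partner METTL14 at short motifs such as GGACU, most often in long internal exons and around stop codons. Peak lists show where antibody enrichment was called. They do not give RNA levels, which were not examined here, so the epithelial or mesenchymal state of the cells was not checked. A peak that is missing may reflect less methylation or less RNA, and these cannot be told apart. Absence of either protein was not checked.

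Sites 1 of CDH2 and ZEB1 lay over the 5′ end of these genes. The 250 bases upstream of an annotated start of each are shown here because these sites reach far over the upstream border of the gene spans used. Sites of KRT8 and FN1 also cross that border, by fewer bases, and their windows are not shown. The sequences are from RefSeq on GRCh38.p14, whereas the peaks are on hg19, and gene starts were not matched between these builds. For CDH2 the window was chr18:28177131-28177380 on the minus strand. For ZEB1 it was chr10:31318167-31318416 on the plus strand, before the most upstream of 7 starts in the table. Capitals mark GGACT, the DNA form of a common m6A motif, and AGTCC, which is the same motif on the other strand.
CDH2: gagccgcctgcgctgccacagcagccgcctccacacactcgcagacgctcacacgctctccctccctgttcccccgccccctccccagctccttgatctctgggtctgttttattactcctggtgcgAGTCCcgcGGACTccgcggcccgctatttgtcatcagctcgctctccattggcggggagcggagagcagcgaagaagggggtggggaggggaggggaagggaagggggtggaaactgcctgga
ZEB1: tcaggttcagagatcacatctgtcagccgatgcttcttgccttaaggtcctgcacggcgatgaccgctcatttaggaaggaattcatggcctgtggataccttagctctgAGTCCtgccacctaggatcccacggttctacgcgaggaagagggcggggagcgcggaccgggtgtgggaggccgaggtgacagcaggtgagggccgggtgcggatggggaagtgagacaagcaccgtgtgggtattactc
The CDH2 window held 1 GGACT and 1 AGTCC, and the ZEB1 window held 1 AGTCC and no GGACT. Of 35116 such windows, 13253 (37.7%) held the motif on either strand, so its occurrence in these windows is common. Deposited peaks have no strand, and CDH2-AS1 and ZEB1-AS1 overlap these genes in RefSeq, so antisense reads cannot be told apart from the genes' own.

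Across the 9 genes, CFL1 knockout libraries held 36 and 34 peaks, METTL3 knockout libraries 33 and 33, and control libraries 29 and 34. The groups overlapped. The means were 35.0 ± 1.41, 33.0 ± 0 and 31.5 ± 3.54 peaks (SD, n = 2 each). Exact two-sided permutation of libraries gave p = 0.667 for CFL1 knockout and p = 1.0 for METTL3 knockout. With 2 against 2 libraries the smallest possible p is 0.333, so no difference here could pass 0.05. The lists as a whole were shorter in the knockouts, with 72728 and 66295 peaks in CFL1 knockout, 63859 and 64952 in METTL3 knockout and 77603 and 79467 in control. Per 100000 listed peaks, the 9 genes held 49.5 and 51.3 in CFL1 knockout, 51.7 and 50.8 in METTL3 knockout and 37.4 and 42.8 in control. On that scale both knockouts lay above both controls, and how often other regions did so was not computed. Most peaks of the 9 genes lay in ZEB1. Without ZEB1, the ratio of knockout to control peak numbers was 0.857 for CFL1 knockout and 0.821 for METTL3 knockout, against 1.11 and 1.05 with it. Among peaks of −log10 q of at least 10 the METTL3 knockout ratio over the 9 genes was 1.89. Median −log10 q over the whole lists was 11.3 and 10.2 in METTL3 knockout against 7.66 and 7.52 in control. This threshold thus removes a larger part of the control lists, and the ratio over all peaks was not computed.

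**Figure D1:**
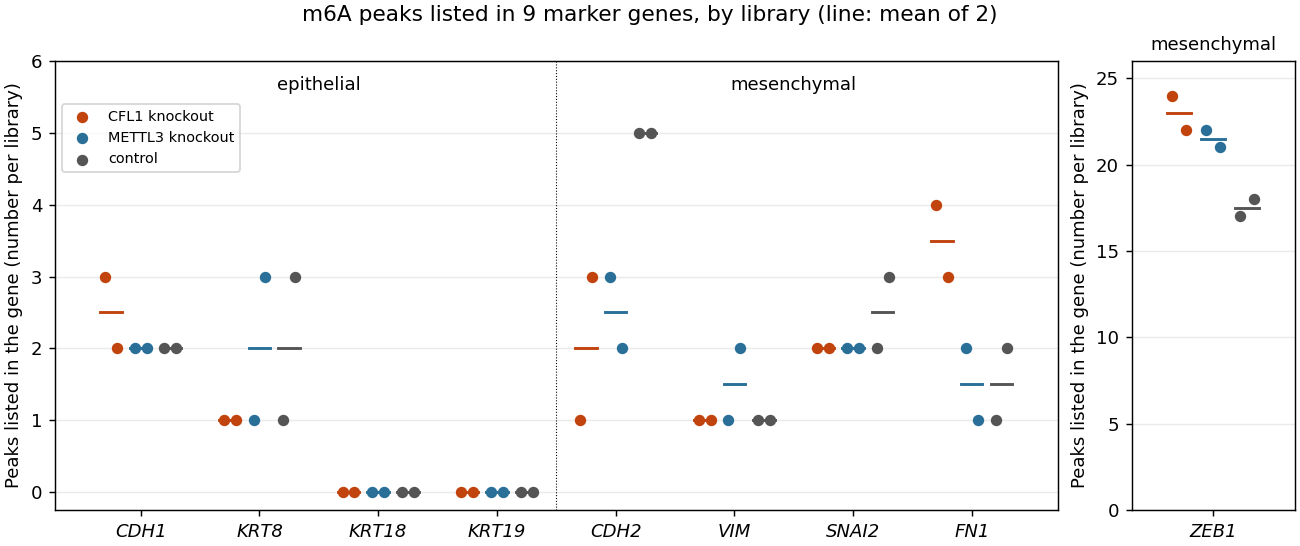
Number of m6A peaks listed in each gene per library (points) with the mean of the 2 libraries of a group (short lines), for CFL1 knockout, METTL3 knockout and control. ZEB1, on its own axis, held 21 to 24 peaks in the knockout libraries and 17 or 18 in control, CDH2 held 1 to 3 in the knockouts and 5 in each control library, and KRT18 and KRT19 held none.

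The sites in these genes were often shared between libraries. Of the 59 sites, 15 (25.4%) were called in every library, against 10.8% of all sites. A further 21 (35.6%) were called in a single library, against 48.3% of all sites, and of these 10 came from CFL1 knockout, 3 from METTL3 knockout and 8 from control. Among control sites, 16 of 36 (44.4%, exact 95% interval 27.9 to 61.9) were absent from both CFL1 knockout libraries, where the share over all sites was 64.9%. For METTL3 knockout it was 14 of 36 (38.9%, 23.1 to 56.5), where the share over all sites was 65.0%. In the other direction, 18 of 38 CFL1 knockout sites (47.4%, 31.0 to 64.2) were absent from both control libraries, against 62.0% over all sites. Of METTL3 knockout sites, 12 of 34 (35.3%, 19.7 to 53.5) were absent from control, against 57.2%. Of sites called in both libraries of a group, those of CFL1 knockout were absent from control in 4 of 22 (18.2%), against 37.3% of all such sites, and those of control absent from CFL1 knockout in 7 of 23 (30.4%), against 50%. Control sites of this kind were absent from METTL3 knockout in 5 of 23 (21.7%), against 49.6%. Sites of 1 gene are not independent and the intervals cover counting error only. No site share was tested.

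E-cadherin, the product of CDH1 on chromosome 16, joins neighbouring epithelial cells. CDH1 held 3 and 2 peaks in CFL1 knockout, 2 and 2 in METTL3 knockout and 2 and 2 in control. The 2 sites shared by all libraries lay close to the 3′ end of the gene. Site 2 (chr16:68867007-68867948, 1.5 kb before the end) had a fold enrichment, the authors' own value per peak, of 24.5 and 27.2 in CFL1 knockout. It was 15.2 and 11.7 in METTL3 knockout and 11.2 and 9.67 in control. Both libraries of each knockout lay above both controls, with means of 25.8 ± 1.89, 13.4 ± 2.48 and 10.4 ± 1.06, a ratio to control of 2.48 for CFL1 knockout and 1.29 for METTL3 knockout (exact permutation p = 0.333 each, the smallest possible). Among all sites called in every library, 34.0% had higher fold in both CFL1 knockout libraries and 43.5% in both METTL3 knockout libraries.

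The second CDH1 site separated the knockouts. Site 3 (chr16:68868531-68868919, 0.525 kb before the end) had fold 8.02 and 9.09 in CFL1 knockout, 3.99 and 4.18 in METTL3 knockout and 4.58 and 4.36 in control. CFL1 knockout lay above control (ratio 1.92) and METTL3 knockout below it (ratio 0.915). That combination occurred at 1.13% of all sites called in every library. Whether the knockouts differed from each other was not tested. The summit, the point of highest signal, of site 2 also differed in place. It lay 2112 and 2103 bp before the 3′ end in CFL1 knockout, 2191 and 2103 bp in METTL3 knockout and 1926 and 1962 bp in control. The knockout summits were thus farther from the end by a mean of 164 and 203 bp. Summits lying on 1 side of both control summits were common among all sites with 1 peak in every library. They were found at 73.6% of these sites in CFL1 knockout and at 74.0% in METTL3 knockout. Site 1 (chr16:68804408-68804686) was called only in CFL1 knockout 3, with fold 7.01.

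The keratins form the filaments of simple epithelia, where KRT8 pairs with KRT18, and KRT19 is found in ductal cells. KRT8, on chromosome 12, held 1 and 1 peaks in CFL1 knockout, 1 and 3 in METTL3 knockout and 1 and 3 in control, and the groups overlapped. Its site at the start of the gene (site 1, chr12:53298612-53298936) was called in every library. Fold there was 1.65 and 1.8 in CFL1 knockout, 1.42 and 1.29 in METTL3 knockout and 1.84 and 1.64 in control. These are low values. The highest fold of a KRT8 peak exceeded 0.763% and 1.53% of the peaks of the CFL1 knockout libraries, 0.136% and 3.55% in METTL3 knockout and 1.31% and 1.41% in control. Both METTL3 knockout libraries lay below both controls at this site and CFL1 knockout overlapped control. Lower fold in both METTL3 knockout libraries was found at 20.0% of all sites called in every library. The summit lay 7794 and 7793 bp before the 3′ end in CFL1 knockout, 7693 and 7668 bp in METTL3 knockout and 7735 and 7710 bp in control, so the knockouts stood on opposite sides of control. How often summits do so over all sites was not computed. The strongest KRT8 site by −log10 q was site 4 (chr12:53292616-53292844). It was called in METTL3 knockout 5 with fold 2.25 and in control 2 with fold 1.69, and in no other library. KRT18 and MIR9898 overlap KRT8 in RefSeq, by whole gene records. The hg19 spans used here for KRT8 and KRT18 lie apart, and no peak was listed in that of KRT18. Whether MIR9898 lies under a KRT8 peak was not examined, and peaks without strand could not be told apart there. KRT8 and KRT18 have many processed pseudogenes, and the sources used here do not say how reads matching several places were treated.

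No peak was listed in KRT18 or KRT19 in any library. The nearest peak to KRT18 lay 5.14 and 5.17 kb away in CFL1 knockout, 5.18 and 5.18 kb in METTL3 knockout and 12.5 and 7.96 kb in control. The nearest to KRT19 lay 7.25 and 25.7 kb away in CFL1 knockout, 7.25 and 195 kb in METTL3 knockout and 9.43 and 9.55 kb in control. Both genes are short, at 4.03 and 4.77 kb, and an absent peak does not show that the RNA was unmethylated at this unknown depth.

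The zinc finger proteins ZEB1 and SNAI2 are repressors of CDH1. ZEB1, on chromosome 10 and 211 kb long, held 32 of the 59 sites. It had 24 and 22 peaks in CFL1 knockout, 22 and 21 in METTL3 knockout and 17 and 18 in control. Both knockouts lay above both controls, with means of 23.0 ± 1.41, 21.5 ± 0.707 and 17.5 ± 0.707 peaks (ratios to control 1.31 and 1.23, exact permutation p = 0.333 each, the smallest possible). Of 11501 windows of 200 kb with a peak, 26.6% had more peaks in both CFL1 knockout libraries and 26.8% in both METTL3 knockout libraries. In windows with a mean of at least 10 peaks, which ZEB1 also exceeds, these shares were 28.5% and 21.0%. Among ZEB1 peaks of −log10 q of at least 10 the ratios were 2.27 and 3.36, and among those of fold of at least 4 the METTL3 knockout ratio was 2.0. Over the whole lists, median −log10 q was 9.45 and 10.9 in CFL1 knockout, 11.3 and 10.2 in METTL3 knockout and 7.66 and 7.52 in control. Median fold was 4.62 and 4.75, 4.66 and 4.75, and 4.15 and 3.93. The same ratios over all peaks were not computed, so whether the ratios at these thresholds are particular to ZEB1 is unknown. Peaks covered 14368 ± 2121 bp of ZEB1 in CFL1 knockout, 14800 ± 344 bp in METTL3 knockout and 10594 ± 626 bp in control. How often covered bases differ in this way over all windows was not computed.

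The additional ZEB1 peaks were not spread over the gene. In the stretch from 140 to 161 kb after the start, chosen after its values were seen and so not tested, CFL1 knockout libraries held 11 and 13 peaks. METTL3 knockout libraries held 11 and 11 there, and control libraries 5 and 6. Elsewhere in the gene the numbers were 13 and 9, 11 and 10, and 12 and 12, in the same order of groups, overlapping control in CFL1 knockout and below it in METTL3 knockout. The median fold of the peaks in the stretch was 3.33 and 3.5 in CFL1 knockout, 7.40 and 8.51 in METTL3 knockout and 3.54 and 3.84 in control. CFL1 knockout thus had more peaks there at lower median fold than control, and METTL3 knockout more peaks at higher median fold. No hg19 annotation was used, so exons and introns are not assigned, and SPTLC1P1 and LOC100505502, pseudogenes, also overlap ZEB1 in RefSeq.

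**Figure D2:**
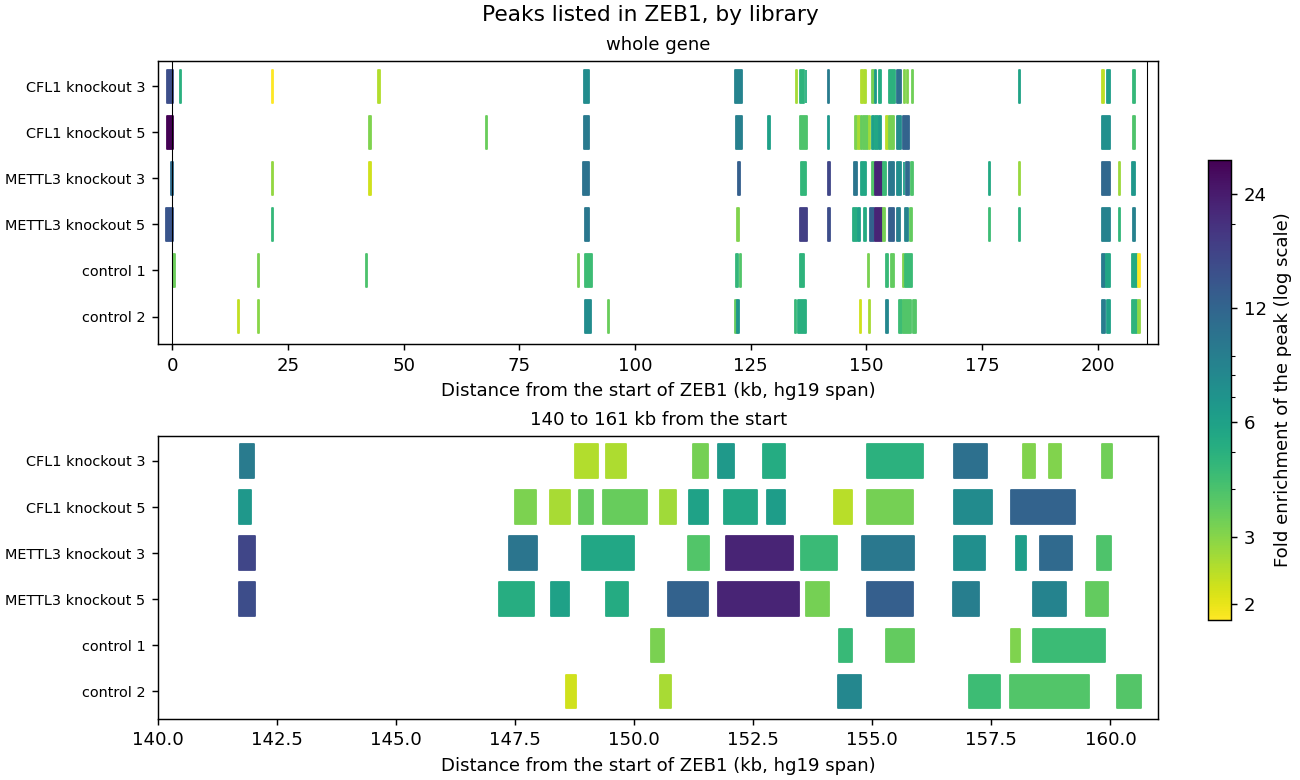
Peaks listed within the hg19 span of ZEB1 in each library (bars, 1 row per library), over the whole gene (top) and from 140 to 161 kb after its start (bottom), with distance from the start in kb on the x axis and the authors' fold enrichment as colour on a log scale. Both controls have 5 or 6 peaks in the lower stretch against 11 to 13 in the knockout libraries, and the darkest peaks there are those of METTL3 knockout.

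The sites absent from control included 2 in that stretch that all 4 knockout libraries shared. Site 17 (chr10:31749801-31750134) had fold 9.38 and 6.68 in CFL1 knockout and 16.4 and 15.5 in METTL3 knockout, with −log10 q of 84.7 and 62.4, and of 312 and 225. No peak was listed there in either control library. Site 21 (chr10:31759859-31761553) had fold 6.61 and 6.34 in CFL1 knockout and 22.3 and 22.3 in METTL3 knockout, and no peak in control. These were the only 2 of the 59 sites with that pattern (3.39%), where 3.63% of all sites had it. Of the 28 sites called in both METTL3 knockout libraries, 7 (25.0%) were absent from both controls, against 36.1% over all sites. All 7 lay in ZEB1, where they made up 7 of 19 such sites (36.8%), near the share over all sites. Outside ZEB1 it was 0 of 9. In the other direction, site 32 (chr10:31816803-31817110, 1.63 kb before the 3′ end) was called in control 1 and 2, with fold 1.81 and 2.90, and in no knockout library.

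ZEB1 also held 8 sites called in every library. Site 1 (chr10:31606812-31608627), over the start of the gene, had fold 15.3 and 29.5 in CFL1 knockout, 14.1 and 14.1 in METTL3 knockout and 11.3 and 8.32 in control. All 4 knockout libraries were above control. Over all sites called in every library, 34.0% had higher fold in both CFL1 knockout libraries and 43.5% in both METTL3 knockout libraries. How often all 4 did so was not computed. Of its peaks, 3 lay upstream without touching the gene span: the peak of control 2, the stronger one of control 1 and the stronger one of METTL3 knockout 3. Site 31 (chr10:31815483-31816589, 2.15 kb before the 3′ end) had the highest −log10 q of all 9 genes. Its −log10 q was 271 and 225 in CFL1 knockout, 390 and 416 in METTL3 knockout and 45.8 and 57.8 in control. Its fold was 4.59 and 3.94 in CFL1 knockout, 6.76 and 8.74 in METTL3 knockout and 5.43 and 4.88 in control. By fold, CFL1 knockout lay below both controls and METTL3 knockout above, although −log10 q, which may vary with depth, was higher in both knockouts. The opposite placing by fold occurred at 3.44% of all sites called in every library, and no test was made between the knockouts.

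SNAI2, which encodes SLUG, lies on chromosome 8 and is 3.75 kb long. It held 2 and 2 peaks in CFL1 knockout, 2 and 2 in METTL3 knockout and 2 and 3 in control. Its 2 sites were called in every library. Site 1 (chr8:49832231-49833146), in the 5′ part of the gene, had fold 4.81 and 4.42 in CFL1 knockout, 5.44 and 3.03 in METTL3 knockout and 13.8 and 13.2 in control. Every knockout library was below both controls, with ratios of the means of 0.343 and 0.314 (4.62 ± 0.273, 4.23 ± 1.70 and 13.5 ± 0.458, exact permutation p = 0.333 each, the smallest possible). The peak of CFL1 knockout 3 (chr8:49832819-49833143) overlapped neither control peak and was joined to them through peaks of other libraries. The peaks of CFL1 knockout 5 and METTL3 knockout 5 overlapped the control peaks, but their summits lay outside both. Fold at this site thus partly compares neighbouring intervals. Over all sites called in every library, 26.4% had lower fold in both CFL1 knockout libraries and 20.0% in both METTL3 knockout libraries. The summit of site 1 lay 2749 and 2630 bp before the 3′ end in CFL1 knockout, 2512 and 2605 bp in METTL3 knockout and 2414 and 2403 bp in control. Displaced summits were common, at 73.6% and 74.0% of all sites with 1 peak in every library. Site 2 (chr8:49830923-49831715), nearer the 3′ end, had fold 4.67 and 5.36 in CFL1 knockout, 9.84 and 9.12 in METTL3 knockout and 4.22 and 5.02 in control. CFL1 knockout overlapped control there and METTL3 knockout lay above it at 2.05 times the control mean. Higher fold in both METTL3 knockout libraries was found at 43.5% of all sites called in every library.

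N-cadherin, the product of CDH2 on chromosome 18, replaces E-cadherin in mesenchymal cells. CDH2 held 1 and 3 peaks in CFL1 knockout, 3 and 2 in METTL3 knockout and 5 and 5 in control. Both knockouts lay below both controls, with means of 2.0 ± 1.41, 2.50 ± 0.707 and 5.0 ± 0 (ratios to control 0.40 and 0.50, exact permutation p = 0.333 each, the smallest possible). Without CFL1 knockout 5 the first ratio was 0.20. The METTL3 knockout ratio was 1.0 among peaks of −log10 q of at least 10 and 0.30 when a peak was counted by its summit. Among 200-kb windows, 22.9% had fewer peaks in both CFL1 knockout libraries and 24.3% in both METTL3 knockout libraries. The site near the 3′ end (site 9, chr18:25531884-25532491, 0.954 kb before the end) was the only CDH2 site called in every library. Its fold was 6.18 and 4.31 in CFL1 knockout, 3.92 and 4.17 in METTL3 knockout and 4.28 and 4.50 in control, and its summits overlapped between groups.

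The CDH2 peaks that were missing in the knockouts lay upstream of that site. Site 1 (chr18:25756958-25758003), over the start of the gene, had fold 4.39 and 10.5 in METTL3 knockout and 4.84 and 3.97 in control, and no peak was listed in CFL1 knockout. The peak of control 2 there lay upstream without touching the gene span. Site 3 (chr18:25727658-25727937) had fold 3.81 and 9.06 in control 1 and 2 and no peak in any knockout library. The same held for sites 2 and 6 (chr18:25750308-25750631 and chr18:25674387-25674816), with control fold of 4.09 and 3.59 at site 2 and 6.41 and 3.84 at site 6. Their −log10 q in control lay between 2.8 and 17.2 over these 3 sites, where the median over all peaks was 7.66 in control 1 and 7.52 in control 2. The highest, 17.2, was that of site 3 in control 2. Across the 9 genes, 5 of 59 sites (8.47%) were called in both controls and no knockout library, against 13.3% of all sites.

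Vimentin, the product of VIM on chromosome 10, is the intermediate filament of mesenchymal cells, and fibronectin, the product of FN1, is a glycoprotein of their matrix. VIM held 1 and 1 peaks in CFL1 knockout, 1 and 2 in METTL3 knockout and 1 and 1 in control. The peaks lay at 2 neighbouring sites near the start. Site 1 (chr10:17270823-17271030) was called in CFL1 knockout 3 and 5, with fold 3.08 and 3.14, and in METTL3 knockout 5, with fold 2.76, and in no control library. Site 2 (chr10:17271209-17271799) was called in METTL3 knockout, with fold 1.40 and 2.33, and in control, with fold 1.25 and 1.40. The listed VIM peak therefore sat at a different site in CFL1 knockout and control. These folds are low. The highest fold of a VIM peak exceeded 17.4% and 16.2% of the peaks of the CFL1 knockout libraries. It exceeded 0.117% and 8.77% in METTL3 knockout and 0.0129% and 0.109% in control. Peaks covered 204 ± 5.66 bp of VIM in CFL1 knockout, 631 ± 229 bp in METTL3 knockout and 229 ± 9.90 bp in control. VIM-AS1 overlaps VIM in RefSeq, and their peaks cannot be told apart.

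FN1, on chromosome 2 and 75.7 kb long, held 4 and 3 peaks in CFL1 knockout, 2 and 1 in METTL3 knockout and 1 and 2 in control. CFL1 knockout lay above control, with 3.5 ± 0.707 against 1.5 ± 0.707 peaks (ratio 2.33, exact permutation p = 0.333, the smallest possible), and METTL3 knockout overlapped control. Among 200-kb windows, which are longer than FN1, 26.6% had more peaks in both CFL1 knockout libraries. The ratio was 1.33 among peaks of −log10 q of at least 5, 1.0 at 10 or more, and 2.0 among peaks of fold of at least 4, and with each of these thresholds CFL1 knockout overlapped control. Without control 2 the ratio was 3.5. Site 6 (chr2:216232347-216233201, 7.18 kb before the 3′ end) was called in every library. Its fold was 16.8 and 21.2 in CFL1 knockout, 9.67 and 13.3 in METTL3 knockout and 8.65 and 13.1 in control. CFL1 knockout lay above both controls at 1.74 times their mean, and METTL3 knockout lay higher than control by less than the spread between libraries. Of all sites called in every library, 34.0% had higher fold in both CFL1 knockout libraries. The summit lay 7588 and 7516 bp before the 3′ end in CFL1 knockout, 7519 and 7505 bp in METTL3 knockout and 7599 and 7595 bp in control, nearer the end in every knockout library. Over all sites with 1 peak in every library, 73.6% and 74.0% had summits displaced to 1 side. Site 4 (chr2:216236941-216237249) was called in both CFL1 knockout libraries, with fold 4.77 and 5.71, and in no other library. The protein-coding ATIC and the RNA gene FN1-DT overlap FN1 in RefSeq, by whole gene records. Where they overlap, peaks without strand cannot be told apart between them.

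**Figure D3:**
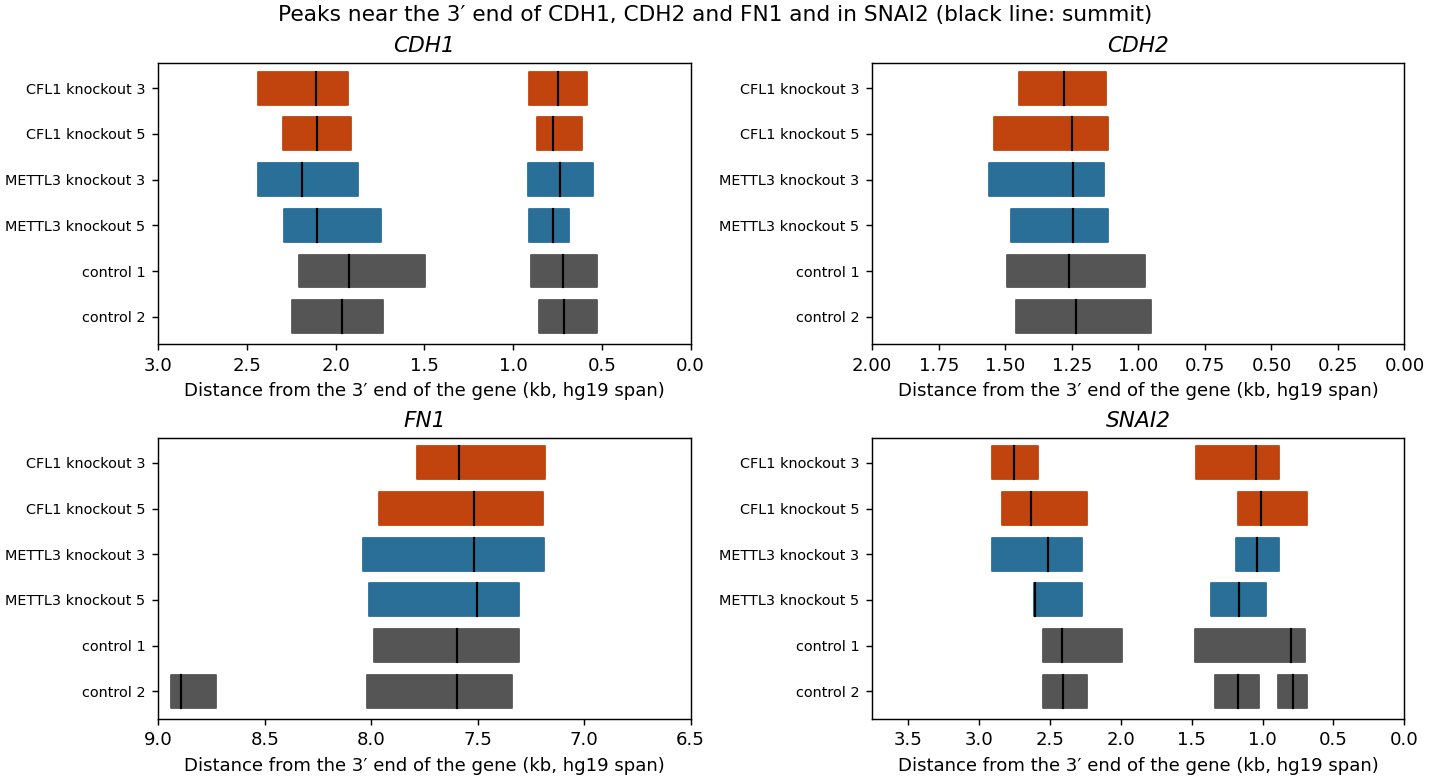
Peaks (bars) and their summits (black lines) in CDH1, CDH2 and FN1 near the 3′ end and in the whole of SNAI2, 1 row per library, with distance from the 3′ end in kb on the x axis. The knockout summits of CDH1 site 2 and SNAI2 site 1, the left bar of each panel, sit farther from the 3′ end than those of control, those of FN1 site 6 sit nearer to it, and the CDH2 summits overlap. Summits were displaced to 1 side at 73.6% (CFL1 knockout) and 74.0% (METTL3 knockout) of all sites with 1 peak in every library.

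Over the 15 sites of these genes called in every library, both CFL1 knockout libraries had higher fold than both controls at 6, lower fold at 3 and overlapping fold at 6. Both METTL3 knockout libraries had higher fold at 7, lower at 4 and overlapping fold at 4. These numbers, 6 and 7 of 15, lie near the shares of 34.0% and 43.5% given above for all sites. Fold at a site can come from peaks that do not overlap each other. At ZEB1 site 20, with higher fold in both knockouts, the peaks of CFL1 knockout 3 and METTL3 knockout 3 overlapped no control peak. The stronger peak of CFL1 knockout 5 there, of fold 5.93, overlapped none either. Its weaker peak, of fold 2.69, did overlap control, where fold was 3.19 and 2.60. At ZEB1 site 29, of lower fold in CFL1 knockout, the strongest peaks differed in place. Their summits lay 8190 and 8189 bp before the 3′ end in CFL1 knockout and 9335 bp in both controls. A weaker peak of each control had its summit near those of CFL1 knockout. Its fold was below the 6.22 and 7.37 of CFL1 knockout. The weaker peak of CFL1 knockout 3, of fold 2.39, overlapped the stronger control peaks, of fold 9.25 and 9.16. The direction differed by site within a gene, as SNAI2 sites 1 and 2 show in METTL3 knockout. Summits were compared at the 8 sites with 1 peak in every library. Both CFL1 knockout summits lay on 1 side of both control summits at 6 of them, and both METTL3 knockout summits at 7 of them. Of all such sites, 73.6% and 74.0% did so, so displaced summits were the rule throughout the lists and not a mark of these genes. The peak names carry a different folder in each list, so a batch of processing, if there was one, and the groups cannot be told apart.

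**Figure D4:**
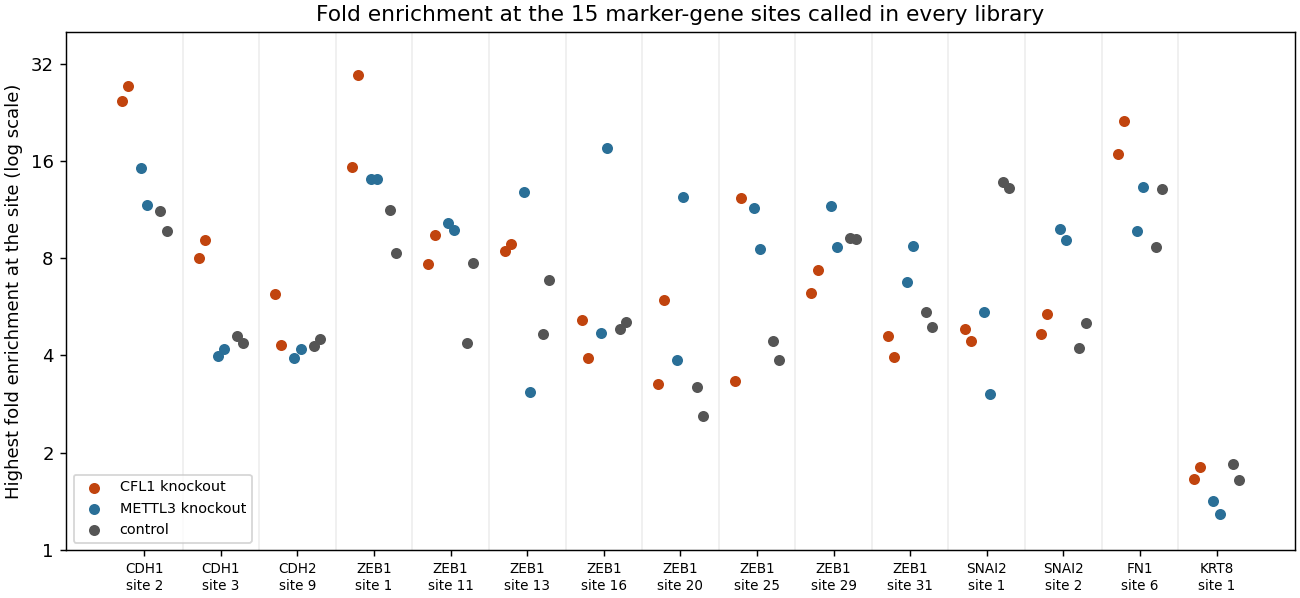
Highest fold enrichment (log scale) at each of the 15 sites called in every library, 2 points per group for CFL1 knockout, METTL3 knockout and control. The 2 groups of knockout points lie below control at SNAI2 site 1, where the peak of CFL1 knockout 3 overlapped no control peak. The summits of CFL1 knockout 5 and METTL3 knockout 5 there lay outside both control peaks. Both CFL1 knockout points lie above those of the other groups at CDH1 sites 2 and 3, ZEB1 site 1 and FN1 site 6.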

How the data were processed

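Of 32 labelled samples, 12 stand behind the 3 peak lists, and the other 20 (nuclear RNA and cytochalasin D) were not analysed here. Per the submitters' processing notes, reads were aligned with STAR to hg19 and peaks were called with MACS2, and bedtools was used. The sources used here give no versions or settings and do not say whether the input was used. The deposited columns used were the interval, the fold enrichment (a ratio), −log10 q and the summit offset, all the authors' own values. The 2 value columns of score and −log10 p were not used. Samples were grouped by title, since the treatment label of the control antibody samples says none.

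Peaks were assigned to libraries by the library number in their names and to genes by overlap of at least 1 bp with hg19 spans. A site joins overlapping peaks of all 6 libraries, and its fold in a library is that of the strongest peak there. Peaks joined through another peak need not overlap each other. Gene counts take only peaks that touch the span. Numbers of peaks, fold and summit positions were compared by exact two-sided permutation of libraries (Python 3.11.15, scipy 1.17.1), and shares have exact 95% binomial intervals. The background was the same measure over all sites or over 200-kb windows. The joining of peaks was checked on invented intervals. Strand came from RefSeq for 5 genes and from general knowledge for 4. No hg19 genome or annotation was used, so exons are not assigned and further marker genes were not counted. Read depth is unknown from peak lists. All 9 genes are described, with all sites of a gene holding 3 or fewer, and otherwise the site of highest −log10 q and, for each knockout, the strongest site of both libraries on one side and none on the other. Other sites were named after their values were seen. The members, lists and tests were chosen with earlier results of these data known. Alternatives were other thresholds, joining rules and scaling, and leaving out each library.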

Additional observations from a re-analysis of the deposited data

Results flagged for a closer look

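At 4 places the knockouts stood on opposite sides of control in every library, and in none was the difference between the knockouts tested. At CDH1 site 3, fold was 8.56 ± 0.757 in CFL1 knockout, 4.09 ± 0.129 in METTL3 knockout and 4.47 ± 0.156 in control (SD, n = 2 each), so that CFL1 knockout minus METTL3 knockout was 4.47. At ZEB1 site 31, near the 3′ end, the same difference in fold was -3.49. At KRT8 site 1 the summit lay 113 bp farther from the 3′ end in CFL1 knockout than in METTL3 knockout. In VIM, the bases covered by peaks in CFL1 knockout minus those in METTL3 knockout were -427. The VIM peaks were 200 and 208 bp wide in CFL1 knockout and, at another site, 222 and 236 bp in control. How often summits or covered bases show such opposite placing over all sites was not computed.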

How the results depend on the processing

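The small number of libraries, 2 per group, the unknown depth and the smallest permutation p of 0.333 limit these comparisons. No paired analysis was possible because libraries 3 and 5 of each knockout could not be matched to the labels' replicates. Of 58 ratios of single genes recomputed under another threshold, scaling or joining, where the reported ratio was not 1, 0 moved to the other side of 1 and 4 came to 1. The 4 pairs of gene and knockout with a reported ratio of 1 (VIM in CFL1 knockout, and CDH1, FN1 and KRT8 in METTL3 knockout) have no direction, and their ratios ranged from 0.50 to 2.0. For the 9 genes together, the ratio of peak numbers without each library in turn was 1.03 to 1.21 for CFL1 knockout and 0.971 to 1.14 for METTL3 knockout, the lowest without control 1. Without ZEB1, an alternative chosen after seeing the data, it was 0.857 and 0.821. The site shares moved more. Control sites absent from CFL1 knockout were 50% when sharing needed 50% of the shorter peak, 30.4% among sites of both control libraries, 56.2% without ZEB1, and 34.6% to 47.2% without each library. CFL1 knockout sites absent from control were 48.6% with peaks joined within 100 bp, 52.5% with 50% of the shorter peak, 52.5% by summit, 48.3% at −log10 q of at least 5, 47.6% at 10, 18.2% among sites of both CFL1 knockout libraries, 53.3% without ZEB1, and 36.7% to 55.3% without each library. Control sites absent from METTL3 knockout were 50% with 50% of the shorter peak, 48.6% by summit, 31.6% at −log10 q of at least 10, 21.7% among sites of both control libraries, and 26.9% to 41.7% without each library. METTL3 knockout sites absent from control were 45.7% with 50% of the shorter peak, 45.7% by summit, 43.8% and 56.7% at −log10 q of at least 5 and 10, 25.0% among sites of both METTL3 knockout libraries, 28.6% without ZEB1, and 29.0% to 44.1% without each library. Apart from sites of both libraries of a group, the share over all sites was not computed under these alternatives. Whether the moves are particular to these genes is therefore unknown, and no cause of them was tested. No ratio could be given for VIM and KRT8 at fold of at least 4, where no peak was left, or for KRT18 and KRT19.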
